A study of Homo sapiens with 6 samples.

Results

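The genes described here encode aminoacyl-tRNA synthetases, the enzymes that load each amino acid onto its transfer RNA. They were chosen by name, as 35 listed synthetase genes of the 20263 genes in the deposited count table, of which 19 encode cytosolic enzymes or subunits and 16 encode mitochondrial enzymes. All 35 were found in the table and all 35 passed the filter on low counts. The data come from AsPC-1, a human pancreatic ductal adenocarcinoma cell line grown in RPMI1640 with serum and transfected with jetPRIME. The 3 groups were cells given a negative control siRNA (siControl), cells given a first siRNA against HMOX1 (HMOX1si1) and cells given a second one (HMOX1si2), with 2 mRNA libraries each. All 3 groups were transfected, no untreated cells are part of the comparison, and the labels give neither the time after transfection nor the siRNA sequences. The study asked how HMOX1, which encodes the heme-degrading enzyme heme oxygenase-1, bears on the growth of these tumour cells.

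Synthetases couple an amino acid to ATP and pass it to the matching tRNA, so each protein made in the cytosol or in mitochondria depends on them. Separate nuclear genes encode most cytosolic and mitochondrial forms, whereas GARS1 (glycine) and KARS1 (lysine) each supply both compartments, and mitochondria make glutaminyl-tRNA by amidating a mischarged tRNA. Several cytosolic enzymes sit in a multi-synthetase complex held by scaffold proteins. Many cytosolic synthetase genes are known targets of ATF4, the transcription factor that is translated when eIF2alpha is phosphorylated, and WARS1 (tryptophan) is also known to respond to interferon-gamma.

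ATF4 binds DNA with C/EBP partners at a composite element, here searched as the letters TGATGNAA on both strands in the 250 bases before each RefSeq start (GRCh38.p14). The promoter table held 30 of the 35 synthetases and not LARS1, VARS1, YARS1, AARS2 or VARS2. The letters occurred before 4 of these 30 genes (13.3%), against 1061 of 27305 genes in the whole table (3.89%) and 6 of 23 other ATF4 targets (26.1%). A gene was counted when any of its listed starts had a match. The 4 matches are shown because they include GARS1, the gene that passed the test below, with the match in capitals.
AARS1: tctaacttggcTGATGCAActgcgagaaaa
GARS1: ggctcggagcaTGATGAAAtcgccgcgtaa
IARS1: ggaggTGATGCAAcgcgctgaaaa
YARS2: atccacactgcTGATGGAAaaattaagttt
The AARS1 stretch is chr16:70289675-70289704 on the plus strand, opposite to the gene, and GENCODE 29 places it in the first exon of the neighbouring gene DDX19B. The GARS1 stretch is chr7:30594834-30594863 on the minus strand, opposite to the gene, in a UTR exon of a longer GARS1 transcript, and its capitals lie 33 to 26 bases before the RefSeq start. The IARS1 stretch is chr9:92293698-92293721 on the plus strand, opposite to the gene, also in an annotated UTR exon. The YARS2 stretch is chr12:32756076-32756105 on the minus strand, the strand of the gene, between annotated genes. Of the 4 genes, GARS1, IARS1 and YARS2 lay below both controls in all 4 knockdown libraries (values below), as 18.2% of all genes did. AARS1 lay below them only with HMOX1si2, where 28.1% of all genes did. CARS1, MARS1, TARS1, MARS2 and NARS2, whose searched promoters held no match, also lay below both controls in all 4. A match of letters is a description and does not show that a factor binds there.

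The libraries held 36.1 to 45.1 M counts, and 13769 genes were tested. Values below are in CPM, counts scaled to a common library size after TMM, a normalization that assumes most genes do not change. HMOX1 (chr22:35380361-35394214) stood at 9.06 and 8.52 CPM in siControl, 2.43 and 2.80 with HMOX1si1 and 1.27 and 1.17 with HMOX1si2, or 29.8% and 13.9% of the control mean. The 10 epithelial markers were above 1 CPM in every library. Of 6 fibroblast markers 2 were, led by LUM at 73.6 to 121 CPM, and so were 2 of 6 blood markers including CD68, whereas CD3E, HBB, CPA1, PNLIP, INS and SST were at 0. The summed fibroblast markers were 119 to 125 CPM in siControl, 91.2 to 95.4 with HMOX1si1 and 79.0 to 87.0 with HMOX1si2. The epithelial sum was 14729 to 16673 CPM in siControl, 10408 to 11155 with HMOX1si1 and 14425 to 14818 with HMOX1si2, and the blood marker sum was 127 to 146, 171 to 202 and 121 to 152 CPM. The part of these markers in the results below was not tested. The labels do not say that replicates came from separate cultures, so each p-value rests on a spread between libraries that may be technical. Fewer cells of a type and less RNA per cell cannot be told apart in bulk RNA.

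Single synthetase genes differed little between the groups. With both siRNAs averaged against siControl, 1 of 35 synthetases passed an adjusted p of 0.05 in edgeR's quasi-likelihood test, GARS1, which was lower. That is 2.86% of the members, and 10.1% of all genes tested were called in this comparison, 4.93% lower and 5.16% higher. None was called with HMOX1si1 alone, where 10.0% of all genes were called. None was called with HMOX1si2 alone, where 5.73% of all genes were called. On average 8 members had an unadjusted p under 0.05 in edgeR, as did 4316 of the 13769 genes tested. DESeq2 called more genes: 6 members on average (17.1%, against 19.4% of all genes), namely GARS1, IARS1, KARS1, MARS1, TARS2 and YARS1. It called 2 members with HMOX1si1 (GARS1 and KARS1; 5.71%, against 19.2% of all genes) and 8 with HMOX1si2 (22.9%, against 13.7% of all genes), namely GARS1, IARS1, LARS1, MARS1, TARS1, TARS2, WARS1 and YARS1. With DESeq2 the members' share was thus near that of all genes on average, below it with HMOX1si1 and above it with HMOX1si2. With edgeR the members' share was below that of all genes in each of these comparisons.

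The intervals bound the size of the changes. The 95% interval of the averaged change lay within 2-fold of control for all 35 synthetases and within 1.5-fold for 31 of them, against 48.5% of all genes within 1.5-fold. The fitted averages ran from -0.39 (GARS1) to 0.38 (TARS2) on the log2 scale.

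In the averaged comparison most cytosolic genes had fitted values below 0, and the mitochondrial genes were evenly split. The fitted average was below 0 for 16 of 19 cytosolic genes (84.2%) and 8 of 16 mitochondrial genes, against 50.5% of all genes. With HMOX1si1 alone the fit was below 0 for 14 of 19 cytosolic and 9 of 16 mitochondrial genes, against 50.1% of all genes. With HMOX1si2 alone it was below 0 for 15 of 19 and 10 of 16, against 49.8% of all genes. The median log2 fold change was -0.11 for the cytosolic genes, 0.003 for the mitochondrial genes and -0.004 for all genes. With HMOX1si1 the medians were -0.08 and -0.05, and with HMOX1si2 they were -0.15 and -0.03. Exons shared with another gene bear on this contrast: without the 11 members that have them (5 cytosolic, 6 mitochondrial), the average medians were -0.11 and -0.07, and the HMOX1si1 medians were -0.113 and -0.117. No test of the difference between the compartments was made, since the genes are not replicates of a condition.

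**Figure D1:**
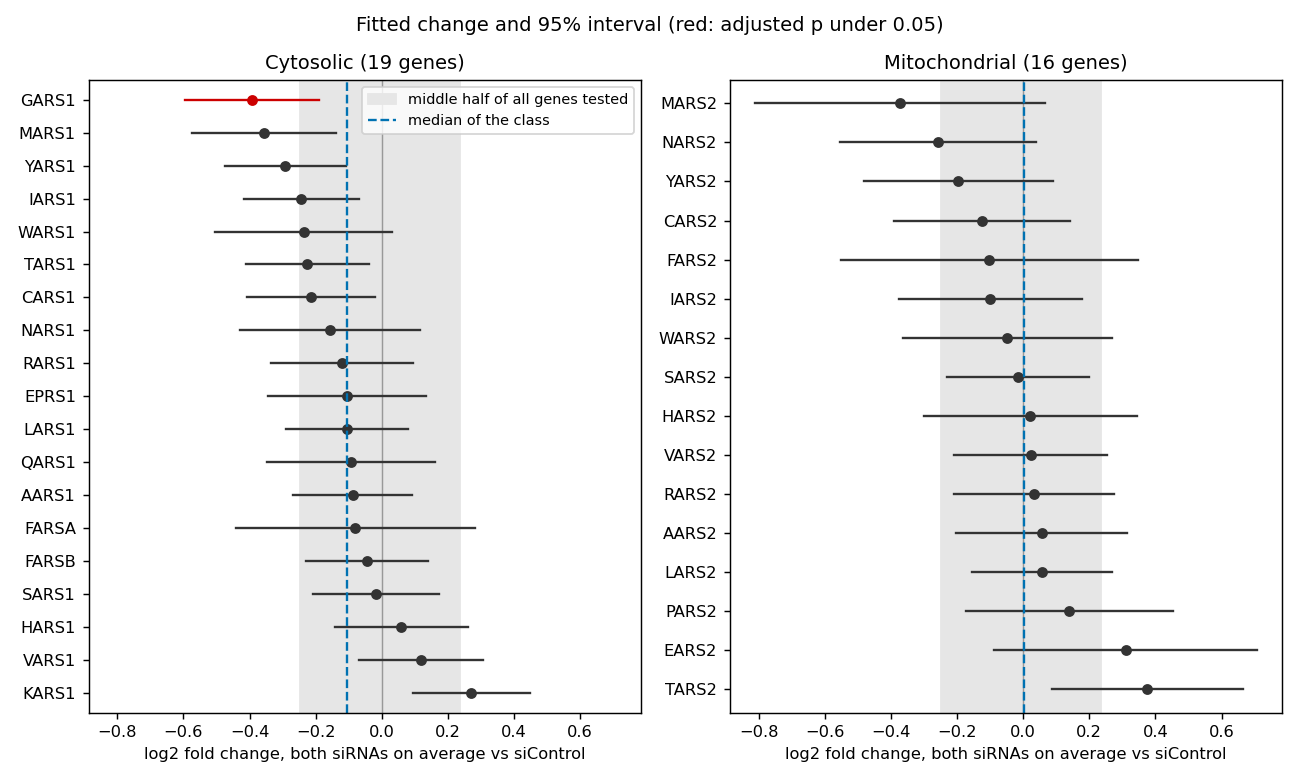
Fitted log2 fold change (x axis) of both siRNAs on average against siControl, with 95% intervals, for 19 cytosolic (left) and 16 mitochondrial (right) synthetases. The grey band runs from the lower to the upper quartile of all genes tested (-0.25 to 0.24), the dashed line is the class median (-0.11 and 0.003), and GARS1, in red, was the gene past the threshold.

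The transcripts of a compartment were also summed in each library. The 19 cytosolic genes summed to 3603 and 3586 CPM in siControl, 3347 and 3343 with HMOX1si1, and 3111 and 3112 with HMOX1si2. The replicates nearly coincided, no groups overlapped, and the means with HMOX1si1 and HMOX1si2 were 93.1% and 86.6% of control. The 16 mitochondrial genes summed to 692 and 688 CPM in siControl, 691 and 663 with HMOX1si1, and 665 and 730 with HMOX1si2, so the HMOX1si2 libraries lay on either side of the controls. Without the 6 mitochondrial genes that share exonic bases the sum was 458 and 450 CPM in siControl, 445 and 418 with HMOX1si1, and 424 and 479 with HMOX1si2, and in neither version did all 4 knockdown libraries lie below both controls. IARS2 alone stood at 257 and 240 CPM in siControl, 243 and 214 with HMOX1si1, and 212 and 260 with HMOX1si2. Without IARS2 the mitochondrial sum was 435.7 and 447.9 CPM in siControl, 448.2 and 449.6 with HMOX1si1, and 453.6 and 469.4 with HMOX1si2. In that version all 4 knockdown libraries lay above both controls, narrowly so with HMOX1si1. The ratio of the cytosolic to the mitochondrial sum was 5.20 and 5.21 in siControl, 4.84 and 5.04 with HMOX1si1, and 4.67 and 4.27 with HMOX1si2. These sums were formed after the members' values had been seen, and they carry no p.

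GARS1 supplied 27.3% of the net drop in the cytosolic sum, MARS1 13.0%, YARS1 11.4% and TARS1 10.6%, while KARS1 was 29.4 CPM higher on average. Without GARS1 the cytosolic sum still stood at 95.1% of control with HMOX1si1 and 88.2% with HMOX1si2. With library totals in place of TMM it stood at 93.7% and 87.8%, and without the 5 cytosolic genes that share exonic bases with another gene it stood at 91.8% and 87.4%. In each of these versions all 4 knockdown libraries lay below both controls and both HMOX1si2 libraries lay below both HMOX1si1 libraries.

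**Figure D2:**
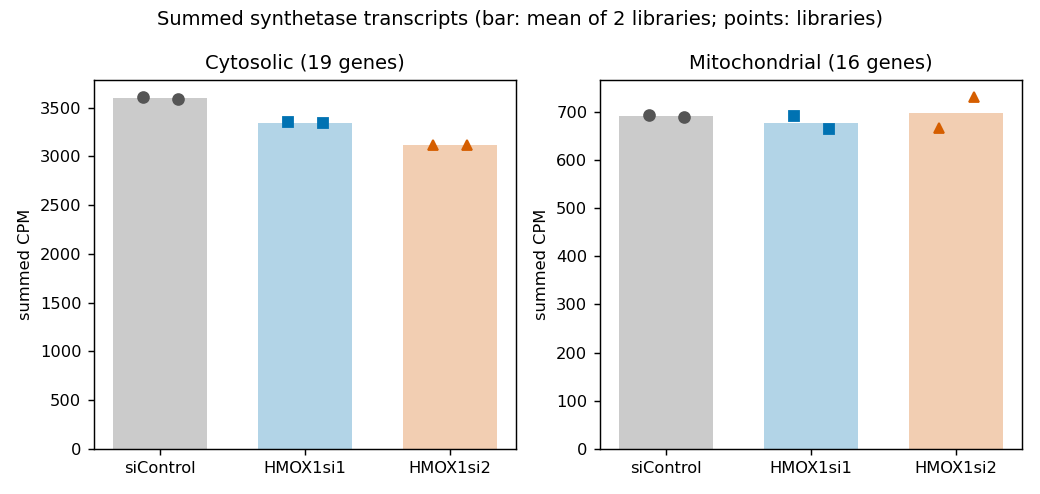
Summed CPM (y axis, from 0) of the 19 cytosolic (left) and 16 mitochondrial (right) synthetases in siControl, HMOX1si1 and HMOX1si2. Points are libraries and bars their means: the cytosolic sum steps from 3594 to 3345 to 3111 CPM, and the mitochondrial sum stays between 663 and 730.

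GARS1 (ENSG00000106105, chr7:30594681-30634033 in GENCODE 29 on GRCh38) encodes glycyl-tRNA synthetase for both compartments. It stood at 421 and 417 CPM in siControl, 315 and 337 with HMOX1si1, and 330 and 295 with HMOX1si2. All 4 knockdown libraries lay below both controls by more than the replicates differed. The average log2 fold change was -0.39 (SE 0.08, 95% interval -0.60 to -0.19, edgeR adjusted p = 0.041), to 77.8% of control with HMOX1si1 and 74.5% with HMOX1si2. The separate changes of -0.36 (adjusted p = 0.068) and -0.42 (adjusted p = 0.062) missed the threshold, and the siRNAs differed by -0.06 (interval -0.30 to 0.18). The average call was lost when any 1 of the 6 libraries was left out, with log2 fold changes of -0.43 to -0.35 over 10 alternatives and adjusted p-values of 0.0015 (DESeq2) to 0.19.

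KARS1 (chr16:75627474-75648643), the lysyl-tRNA synthetase and the other gene that serves both compartments, stood on the opposite side. It stood at 141 and 143 CPM in siControl, 177 and 172 with HMOX1si1, and 169 and 169 with HMOX1si2, and no group overlapped with another. The average log2 fold change was 0.27 (interval 0.09 to 0.45, edgeR adjusted p = 0.067), short of the threshold, and DESeq2 called it (adjusted p = 0.0083, over 10 alternatives up to 0.23). KARS1 shares 176 exonic bases with TERF2IP on the opposite strand, and reads there may be divided between the genes. It stood at 122% of control with HMOX1si1 and 119% with HMOX1si2, so the 2 genes that serve both compartments lay on opposite sides of their controls.

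KARS1 belongs to the multi-synthetase complex, as do the 6 other listed members EPRS1 (glutamate and proline), IARS1 (isoleucine), LARS1 (leucine), MARS1 (methionine), QARS1 (glutamine) and RARS1 (arginine). None of the 7 was called by edgeR on average, and their median log2 fold change of -0.11 was close to the -0.12 of the 12 cytosolic genes outside the complex. MARS1 had the lowest fit of the 7. It stood at 223 and 216 CPM in siControl, 195 and 172 with HMOX1si1, and 168 and 153 with HMOX1si2, which is -0.36 on average (interval -0.57 to -0.14, edgeR adjusted p = 0.059). The groups did not overlap, and HMOX1si2 lay lowest. MARS1 shares 355 exonic bases with DDIT3 and 519 with ARHGAP9 on the opposite strand, and DDIT3, the stress transcription factor CHOP, stood at 20.8 and 53.8 CPM in the 2 HMOX1si2 libraries.

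IARS1 stood at 245 and 250 CPM in siControl, 213 and 211 with HMOX1si1, and 203 and 210 with HMOX1si2, an average of -0.24 (adjusted p = 0.084). All 4 knockdown libraries lay below both controls, and both HMOX1si2 libraries lay just below the HMOX1si1 libraries. EPRS1, which carries 2 synthetases in 1 chain, stood at 384 and 336 CPM in siControl, and the 4 knockdown libraries, at 309 to 354, reached into that range. QARS1 was at 98.3 and 93.4 CPM with HMOX1si1, below its controls of 103 and 122, whereas HMOX1si2 at 109 and 123 was not. The scaffold genes AIMP1, AIMP2 and EEF1E1 held the complex's other measured parts: none was called, and their median was -0.19.

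Among the cytosolic genes outside the complex, YARS1 (tyrosine, chr1:32775237-32818153) came closest to the threshold after GARS1. It stood at 224 and 240 CPM in siControl, 204 and 206 with HMOX1si1, and 178 and 172 with HMOX1si2. The 3 groups stepped down without overlap, and the average was -0.29 (interval -0.47 to -0.11, edgeR adjusted p = 0.061). TARS1 (threonine) also stepped down without overlap, from 270 and 272 CPM to 236 and 255 and then 216 and 222, an average of -0.23 (adjusted p = 0.11). CARS1 (cysteine) was lower than both controls in all 4 knockdown libraries too, at 165 and 157 CPM with HMOX1si1 and 176 and 177 with HMOX1si2 against 186 and 205, but here HMOX1si1 lay lowest. VARS1 (valine) was the only other cytosolic gene besides KARS1 above both controls in all 4, at 108 to 112 CPM against 97.3 and 104.

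AARS1 (alanine) was below its controls of 358 and 352 CPM with HMOX1si2 alone, at 305 and 318, and HMOX1si1 at 366 and 349 overlapped them. NARS1 (asparagine), RARS1 and FARSB (the beta subunit for phenylalanine) lay below both controls with HMOX1si1 alone. All 4 knockdown libraries of SARS1 (serine), at 154 to 163 CPM, lay between its controls of 153 and 165. FARSA, the alpha subunit, differed between the HMOX1si2 replicates, at 77.6 and 58.1 CPM, so the FARSA to FARSB ratio per kilobase of exon ran from 1.62 to 2.26 within that group against 2.17 and 2.13 in siControl.

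**Figure D3:**
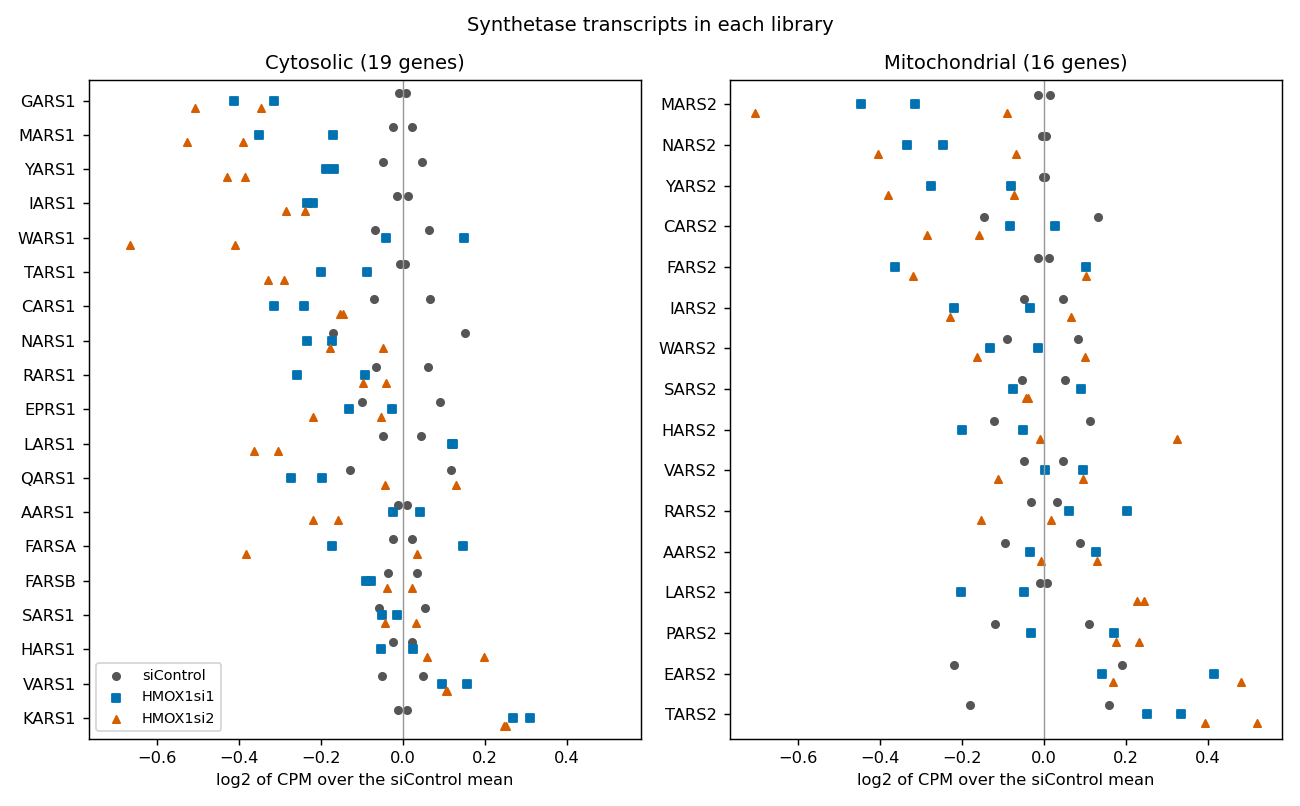
Each library's CPM as log2 of its ratio to the siControl mean (x axis) for 19 cytosolic (left) and 16 mitochondrial (right) synthetases, ordered by the average change. Circles are siControl, squares HMOX1si1 and triangles HMOX1si2, and knockdown points of GARS1 lie left of both controls while those of KARS1 and TARS2 lie right of them.

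The libraries can also be counted one by one. Lower than both controls in all 4 knockdown libraries were 9 members (6 cytosolic: CARS1, GARS1, IARS1, MARS1, TARS1 and YARS1; 3 mitochondrial: MARS2, NARS2 and YARS2), where 18.2% of all genes were. Higher in all 4 were 3 members (KARS1, VARS1 and TARS2), where 18.7% of all genes were. With HMOX1si1 14 members lay below both controls and 5 above, and 31.9% of all genes did each. With HMOX1si2 13 lay below and 6 above, against 28.1% and 28.9% of all genes.

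Of the mitochondrial genes none was called by edgeR in any comparison. On average 1 of 16 had an unadjusted p under 0.05 in edgeR, TARS2, where 4316 of the 13769 genes tested had such a p. TARS2 (mitochondrial threonyl-tRNA synthetase, chr1:150487364-150507609) stood at 39.4 and 49.9 CPM in siControl, 53.1 and 56.3 with HMOX1si1, and 64.1 and 58.6 with HMOX1si2. All 4 knockdown libraries lay above both controls, which themselves were far apart. The average log2 fold change was 0.38 (interval 0.09 to 0.67, edgeR adjusted p = 0.096), the highest of all 35 members.

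MARS2 had the lowest mitochondrial fit, -0.37, with a wide interval of -0.81 to 0.07 (adjusted p = 0.22). It stood at 15.5 and 15.2 CPM in siControl, 12.4 and 11.3 with HMOX1si1, and 9.43 and 14.4 with HMOX1si2. The HMOX1si2 replicates lay further apart than the siControl and HMOX1si1 means did, and without HMOX1si2 replicate 2 edgeR called the gene (log2 fold change -0.54, adjusted p = 0.047). NARS2, at 22.2 and 22.1 CPM in siControl and 16.7 to 21.1 in the knockdown libraries, and YARS2, at 36.7 and 36.6 against 28.2 to 34.9, showed that spread too. None of the other 12 mitochondrial genes had all 4 knockdown libraries above or all below the controls, and their fitted averages ran from -0.12 (CARS2) to 0.31 (EARS2). EARS2, which loads glutamate, was at 51.8 and 39.0 CPM in siControl and 50.1 to 63.4 in the knockdown libraries.

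HARS1 and HARS2 (histidine, cytosolic and mitochondrial) start back to back on chromosome 5, with RefSeq starts at 140691370 on the minus strand and 140691455 on the plus strand, and share 437 exonic bases. HARS1 stood at 71.3 and 73.8 CPM in siControl, 73.8 and 69.9 with HMOX1si1, and 75.6 and 83.2 with HMOX1si2. HARS2 stood at 30.3 and 35.7, 28.8 and 31.9, and 32.8 and 41.4 CPM. The highest value of each gene fell in HMOX1si2 replicate 2, and reads in the shared bases may be divided between them.

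Levels between genes were compared per kilobase of merged GENCODE 29 exons. That length joins all annotated exons of a gene and is not the length of 1 transcript, so the ranks depend on it. It was 7.85 kilobases for HARS1 and 10.5 for CARS2, against 3.74 for HARS2 and 3.37 for FARSB. Before division by length, HARS1 had a siControl mean of 72.5 CPM, above FARSB at 48.8. GARS1 was the highest synthetase of control cells, at 102 and 100 CPM per kilobase, followed by AARS1 at 79.5 and 78.3 and EPRS1 at 70.4 and 61.7. The fourth was a mitochondrial enzyme, IARS2, at 61.6 and 57.7 CPM per kilobase, above its cytosolic counterpart IARS1 at 33.1 and 33.8. The lowest were FARS2 at 2.30 and 2.26, WARS2 at 3.12 and 2.77 and CARS2 at 3.39 and 4.11. The median was 30.8 CPM per kilobase over the cytosolic genes and 6.61 over the mitochondrial genes. In the order of the 35 levels, 13 of 34 neighbours had control libraries that overlapped.

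**Figure D4:**
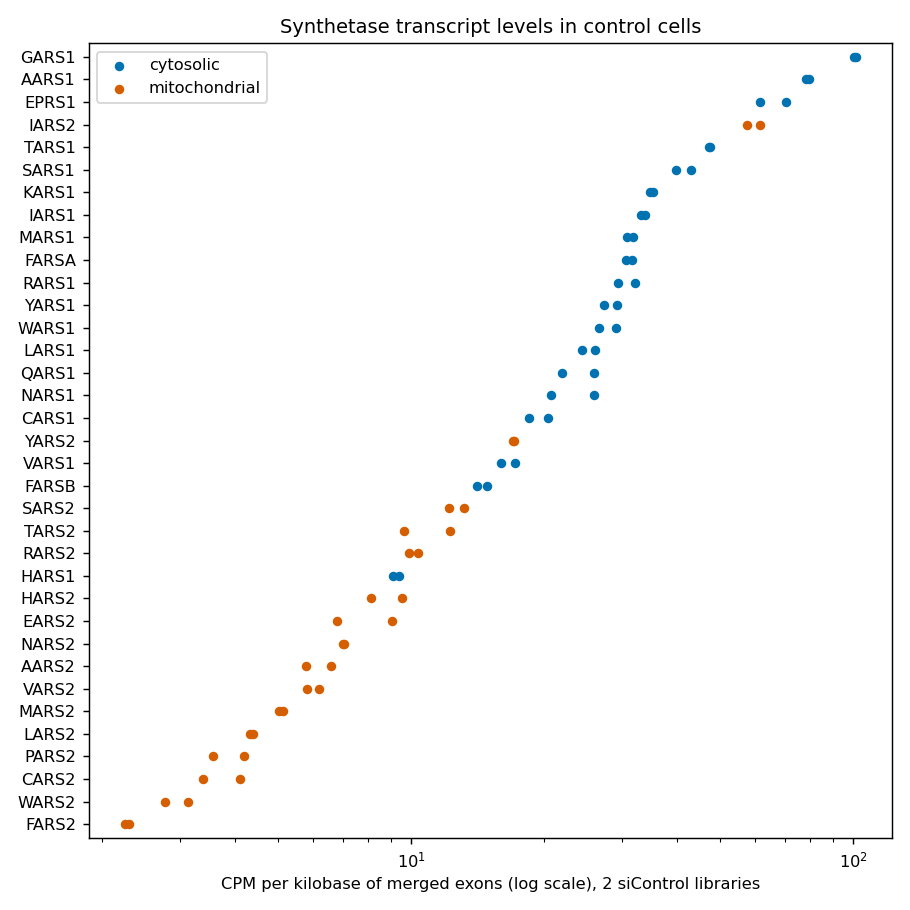
Transcript level per kilobase of merged exons (x axis, log scale) of 35 synthetases in the 2 siControl libraries, ranked by mean. Cytosolic genes fill most of the upper ranks and mitochondrial genes the lower ones, with IARS2 in rank 4 and HARS1 the lowest cytosolic gene at 9.24 CPM per kilobase.

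For 14 amino acids both a cytosolic and a mitochondrial gene were listed. The cytosolic gene was higher per kilobase in both controls for 12 of these pairs, all but isoleucine (ratio 0.54 and 0.59) and histidine (1.12 and 0.98). The histidine exception depends on the merged exon length: in CPM, HARS1 at 71.3 and 73.8 was above HARS2 at 30.3 and 35.7. The threonine pair was the only one whose cytosolic to mitochondrial ratio was below both controls in each of the 4 knockdown libraries, and no pair was above them in all 4. TARS1 to TARS2 was 4.88 and 3.89 in siControl, 3.16 and 3.23 with HMOX1si1, and 2.40 and 2.70 with HMOX1si2. This pair, 1 of 14, was singled out after the 14 ratios had been seen, and no test was made of it. No share among other gene pairs is set beside that count, so it cannot be read as particular to threonine.

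The largest fitted differences between the siRNAs were at WARS1 and LARS1. For the difference HMOX1si2 minus HMOX1si1, edgeR called 3.62% of all genes and none of the 35 synthetases. DESeq2 called LARS1 and WARS1, where it called 10.2% of all genes. LARS1 (cytosolic leucyl-tRNA synthetase, known also as a leucine sensor upstream of mTORC1; chr5:146113038-146182660) stood at 211 and 198 CPM in siControl, 223 and 223 with HMOX1si1, and 159 and 166 with HMOX1si2. HMOX1si1 lay above both controls and HMOX1si2 below both, and the difference was -0.46 (SE 0.09, interval -0.67 to -0.24, edgeR adjusted p = 0.051).

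LARS2, the mitochondrial leucyl enzyme (chr3:45388506-45549421), did the reverse, at 29.6 and 29.9 CPM in siControl, 28.8 and 25.9 with HMOX1si1, and 34.8 and 35.3 with HMOX1si2. Its difference was 0.36 (interval 0.11 to 0.60, edgeR adjusted p = 0.11). The LARS1 to LARS2 ratio per kilobase was thus 6.02 and 5.57 in siControl, 6.52 and 7.24 with HMOX1si1, and 3.85 and 3.96 with HMOX1si2. LARS1 was the only member above the controls with HMOX1si1 and below with HMOX1si2, as 2.82% of all genes were. LARS2 was the only member with the reverse, as 2.96% were. Each time 1 of 35 members was near the share of all genes.

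WARS1 (chr14:100333788-100376805) stood at 185 and 169 CPM in siControl, 172 and 196 with HMOX1si1, and 133 and 112 with HMOX1si2. HMOX1si1 overlapped the controls and HMOX1si2 lay below all other libraries. The difference between the siRNAs was -0.59 (SE 0.13, interval -0.90 to -0.28, edgeR adjusted p = 0.067), and HMOX1si2 against siControl was -0.53 (adjusted p = 0.069). WARS1 shares 287 exonic bases with WDR25 on the opposite strand. Of 12 tested genes of an interferon-gamma list, ICAM1 alone was called, higher with each siRNA, and the list's median was 0.09 on average. That is 8.33% of the list, against 10.1% of all genes on average, 10.0% with HMOX1si1 and 5.73% with HMOX1si2. ICAM1 was at a low level, 2.35 and 2.30 CPM in siControl, 4.32 and 4.20 with HMOX1si1, and 5.90 and 4.53 with HMOX1si2. ICAM1 lost its average call without either siControl library or either HMOX1si1 library.

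**Figure D5:**
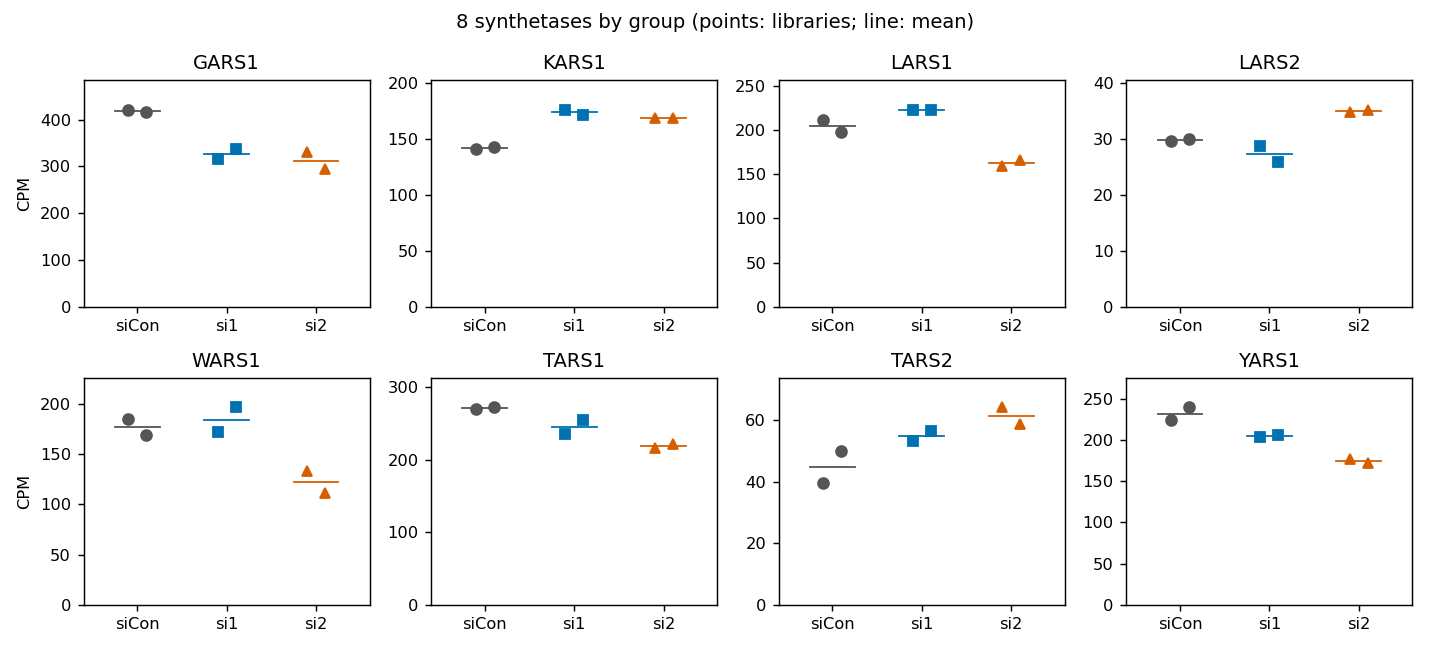
CPM (y axis, from 0) of 8 synthetases in siControl (siCon), HMOX1si1 (si1) and HMOX1si2 (si2), with a point for each library and a line at the group mean. GARS1 is lower and KARS1 higher with both siRNAs, LARS1 and LARS2 lie on opposite sides of the controls with the 2 siRNAs, and TARS1 and TARS2 step in opposite directions.

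The steps around charging were read from lists of related genes in the average comparison, where edgeR called 4.93% of all genes lower and 5.16% higher. Among 4 genes of mitochondrial amidation and formylation, GATC was lower and no other was called. GATC, a subunit of the enzyme that makes mitochondrial glutaminyl-tRNA, stood at 61.3 and 60.7 CPM in siControl, 49.3 and 49.2 with HMOX1si1, and 44.6 and 46.2 with HMOX1si2 (log2 fold change -0.37, edgeR adjusted p = 0.035), and shares 1729 exonic bases with SRSF9. GFM1, a mitochondrial elongation factor, was the 1 lower of 10 mitochondrial translation factors (-0.40, adjusted p = 0.049). PRORP, the nuclease that trims mitochondrial tRNA precursors, was the 1 higher of 24 tRNA maturation genes (0.64, adjusted p = 0.0497), and shares 2858 exonic bases with an overlapping gene model. Of 6 genes each for the selenocysteine route, for editing and recycling of charged tRNA, and for tRNA export and delivery, none was called, with medians of 0.01, -0.12 and -0.21. Each of the 3 calls rested on few libraries: GFM1 lost its call when any 1 of the 6 libraries was left out, and GATC and PRORP lost theirs except without HMOX1si2 replicate 2.

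The list of eIF2alpha kinases and their control, which includes ATF4 itself, had 1 higher and 1 lower call of 17. The calls were the paired phosphatase subunits that reverse eIF2alpha phosphorylation, PPP1R15A (log2 fold change 1.44, edgeR adjusted p = 0.0076) and PPP1R15B (-0.39, edgeR adjusted p = 0.039). Genes of this list, the higher PPP1R15A included, are not counted among the ATF4 targets below. PPP1R15A lost its call without either siControl library, and PPP1R15B when any 1 library was left out. The ATF4 transcript stood at 645 and 692 CPM in siControl and 570 to 702 in the knockdown libraries (-0.07, adjusted p = 0.61). Of 26 tested ATF4 targets that are not synthetases, 5 were lower and 1 higher (23.1% called, against 10.1% of all genes, with a median of -0.19). Their fitted averages were below 0 for 18 and above 0 for 8, and ran from -1.54 to 1.60. The lower calls included the amino acid genes ASNS at -0.62, PSPH at -0.93 and PSAT1 at -0.92, and the higher call was NUPR1 at 1.60. In the same comparison 1 of 35 synthetases was called and their median was -0.09, and the difference between the lists was not tested. Without either siControl library no gene of the whole table was called. The loss of the ATF4 target calls and of PPP1R15A there is thus not particular to these genes. The same holds for the losses of GARS1 and ICAM1 in those fits.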

How the data were processed

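The authors deposited a single table of whole-number values per gene and library, read here to hold expected counts (estimated counts) from what the values look like. For aligner, counter and strand setting the answer is: not given in the sources used here. Of values from 1 to 10, 71.9% were even, against 49.9% of those over 100. The submitters' processing notes name a mouse build and the 20263 identifiers are all human, which leaves the build used unknown. GENCODE 29 (GRCh38) gave 20224 of them coordinates and exon lengths, and a symbol was found for 20148. Members and lists were chosen with earlier results of these data known. The rule for full statistics takes members past the threshold; other members were named after their values were seen. Rounded counts (all already whole) were fitted in R 4.3.3 with edgeR 4.0.16 (filterByExpr, TMM, glmQLFit and glmQLFTest, 1 mean per group, 13769 genes, Benjamini-Hochberg, 0.05), with limma 3.58.1 loaded and DESeq2 1.42.0 as an alternative. SE is the absolute log2 fold change over the square root of F, and 95% intervals use the fit's degrees of freedom. The fit was tested on simulated data. Sequences are from RefSeq promoters. Alternatives were library totals, no filter, fewer groups, a replicate block, each library left out, and overlapping genes left out; sums over a class and their alternatives were added after seeing the data. A gene of the related lists that differed between the siRNAs is not reported here.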

Additional observations from a re-analysis of the deposited data

Results flagged for a closer look

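Among the genes reported, 3 differed between the siRNAs by edgeR's test of HMOX1si2 minus HMOX1si1. HMOX1 itself was lower with HMOX1si2, by -1.10 on the log2 scale (adjusted p = 0.028). EIF2AK3, the eIF2alpha kinase of the endoplasmic reticulum, differed by -0.91 (adjusted p = 0.018): it stood at 19.2 and 19.9 CPM in siControl, 24.5 and 23.2 with HMOX1si1 and 13.1 and 12.2 with HMOX1si2. NUPR1, an ATF4 target, differed by 1.20 (adjusted p = 0.019) and was higher than siControl with each siRNA. These calls depend on single libraries: HMOX1 and EIF2AK3 passed in 3 of 11 alternatives (adjusted p up to 0.14 and 0.10) and in none that left out a library, and NUPR1 passed in 4 of 11 (adjusted p up to 0.11). LARS1 and LARS2 are listed because their libraries lay on opposite sides of both controls with the 2 siRNAs. Of all genes, 2.82% lay as LARS1 did and 2.96% as LARS2 did, and 1 of 35 members each time is near those shares. The edgeR test of the difference missed the threshold for LARS1 (-0.46, adjusted p = 0.051) and LARS2 (0.36, adjusted p = 0.11).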

How the results depend on the processing

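With 2 libraries a group, calls depended on the tool and on single libraries. DESeq2 called 6 members on average, 2 with HMOX1si1, 8 with HMOX1si2 and 2 for the difference, where edgeR called 1, 0, 0 and 0. The replicate block gave 0 members on average and 255 genes in all, against 1389 without it; replicate numbers came with correlations of -0.15 to 0.03 between groups, so they are only numbers. Leaving out 1 library gave 0 to 1 members on average (MARS2, without HMOX1si2 replicate 2) and 0 genes in all without either siControl library, 180 to 290 without an HMOX1si1 library and 705 to 1594 without an HMOX1si2 library. The HMOX1 average ranged from -2.35 to -2.25 and lost its call without either siControl library. Medians over left-out libraries were -0.14 to -0.10 (cytosolic, average), -0.20 to -0.15 (cytosolic, HMOX1si2), -0.043 to -0.013 (cytosolic, difference), -0.050 to 0.081 (mitochondrial, HMOX1si2) and -0.078 to 0.10 (mitochondrial, difference). Without members that share exonic bases, the medians were -0.11 (cytosolic, HMOX1si1), -0.073 (mitochondrial, average) and -0.12 (mitochondrial, HMOX1si1). WARS1 with HMOX1si1 changed sign without HMOX1si1 replicate 2 (-0.041) and without siControl replicate 2 (-0.0028), in a range of -0.041 to 0.15 over left-out libraries. A fit of only the groups compared gives no averaged contrast. The causes were not tested.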
